A study of Homo sapiens with 47 samples.

Results

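Human embryonic stem cells were taken through an early axial progenitor state and then passaged, and the whole cultures of passage 3 (P3) were compared with those of passage 1 (P1). The 6 libraries, 3 for each passage, were chosen by their time and replicate labels among the 47 libraries of the series, 35 of which came from whole cultures. All were polyA RNA-seq libraries of 1 established line, WA09 (H9). Cells in N2B27 without vitamin A received CHIR-99021 (a GSK3 inhibitor that activates WNT signalling), rhFGF2, AGN193109 (an inverse agonist of retinoic acid receptors) and Y-27632 (a ROCK inhibitor) for 36 h, were replated with TrypLE at 1 to 6, and stayed in the same mixture, with a new passage every 3 to 4 days. P1 and P3 therefore shared every agent and differed in time and passage number. The comparison asks what differed between the first cultures after the neuromesodermal progenitor (NMP) stage and the cultures that later gave pre-neural progenitors and neural crest. Each of the 3 differentiations gave 1 library at P1 and 1 at P3, and values are given in the order of differentiations 1, 2 and 3. The summed expected counts of P1 were 21802304, 36685917 and 58023045, and those of P3 were 46333051, 41229367 and 54768886. Mitochondrially encoded genes took 2.88%, 4.67% and 4.57% of the counts at P1 and 4.34%, 3.79% and 3.54% at P3.

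NMPs of the caudal embryo carry TBXT (brachyury) together with SOX2 and give rise to spinal cord and to paraxial mesoderm. *TBX6* and *MSGN1* mark the mesodermal branch, in which Notch signalling drives a segmentation clock, whereas cells that keep *SOX2* without *TBX6* take a pre-neural course. As the body axis extends, *HOX* genes are switched on in the order of their places in the 4 clusters, so that low-numbered genes mark anterior levels and high-numbered genes mark thoracic and more caudal levels.

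The libraries of differentiation 1 stood apart at both passages. In P1 of differentiation 1 the profile was closest to the 36 h libraries of differentiations 2 and 1, with a Pearson correlation across 12921 genes of 0.948 and 0.935, whereas P1 of differentiations 2 and 3 were closest to each other, at 0.971. P3 of differentiation 1 was closest to its own P2 library (0.959), then to its own P4 library (0.950) and to P1 of differentiation 2 (0.943), and P3 of differentiations 2 and 3 correlated with each other at 0.984. These correlations describe likeness across genes, which are not independent replicates. The pluripotency markers *POU5F1* and *NANOG* summed to 889.8 TPM (transcript levels per gene length, scaled to the same library sum) in P1 of differentiation 1, against 18.81 and 5.07 in the other 2 P1 libraries, and to 1.05, 0.79 and 0.18 at P3; *POU5F1* was the more abundant in each. The presomitic markers *TBX6* and *MSGN1* summed to 6.03, 358.5 and 312.5 TPM at P1 and to 157.8, 8.63 and 21.36 at P3. The pluripotency sum was thus high in 1 P1 library, and the presomitic sum was low at P1 and high at P3 in differentiation 1 alone. In these bulk cultures, fewer cells of a type and less RNA per cell cannot be told apart.

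**Figure D1:**
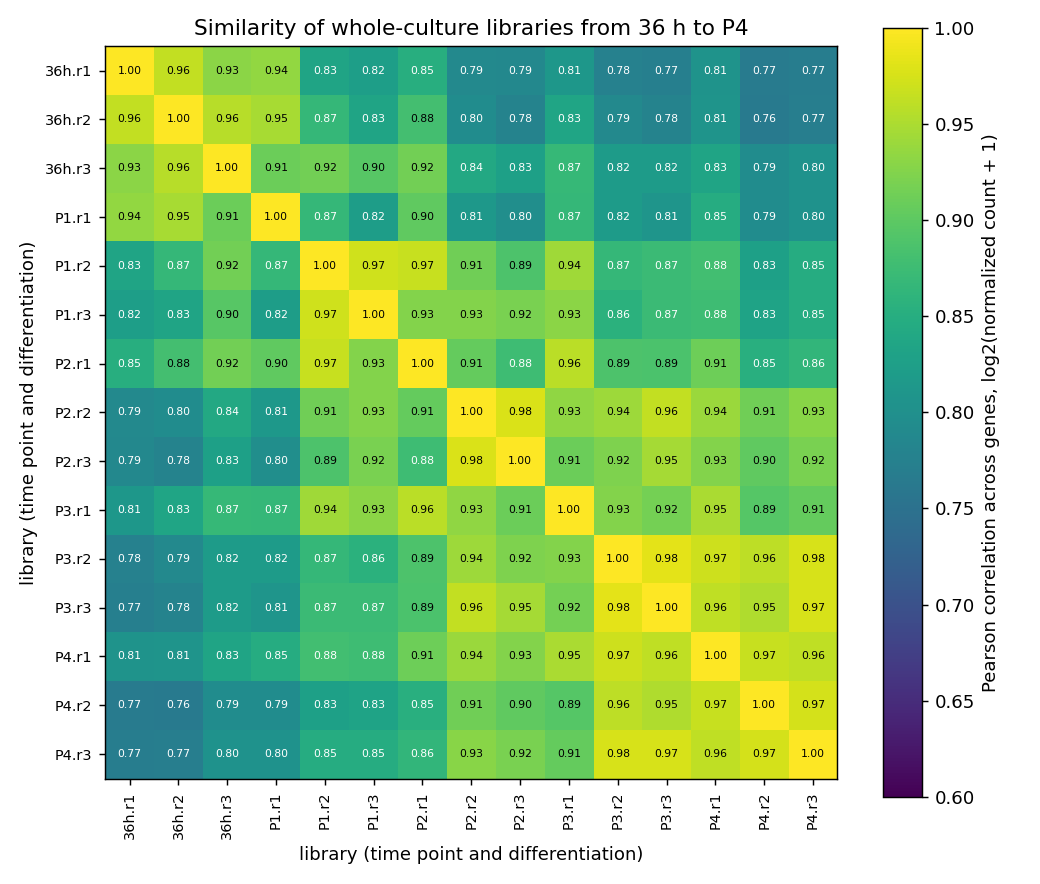
Pearson correlation across 12921 genes between whole-culture libraries from 36 h to P4, on log2(normalized count + 1). P1 of differentiation 1 sits nearest the 36 h libraries (0.948 with 36 h of differentiation 2), and P3 of differentiations 2 and 3 correlate at 0.984.

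With edgeR, differentiation as a block, a Benjamini-Hochberg adjusted p under 1%, a 2-fold difference or more and at least 100 normalized counts on average in the 6 libraries, 0 of 17526 tested genes passed (0.0%). The lowest adjusted p was 0.093, and 2505 genes had an unadjusted p under 0.05, where 5% of the tested genes is 876.3. DESeq2 with the same block and thresholds passed 322 genes higher at P3 (1.84% of 17500) and 282 lower (1.61%). Without differentiation 1, edgeR passed 668 genes higher (3.69% of 18096) and 686 lower (3.79%); without differentiation 2, and without differentiation 3, it passed 0 and 0. The biological coefficient of variation was 39.9% with all 3 differentiations, 16.9% without differentiation 1, 48.8% without 2 and 46.5% without 3.

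Because no gene passed that test, genes were also counted, after this was seen and with no test, where P3 was at least 2-fold above or below P1 in each of the 3 pairs, on normalized counts plus 1. Of 12921 genes averaging 100 normalized counts or more, 208 were higher in all 3 pairs (1.61%) and 198 were lower in all 3 (1.53%). DESeq2 also passed 201 of these 208 and 188 of these 198, which is 201 of its 322 and 188 of its 282. Another 237 genes (1.83%) were at least 2-fold higher in differentiation 1 and at least 2-fold lower in differentiations 2 and 3, and 123 (0.952%) were the reverse. The P3 to P1 log2 ratios correlated across genes at 0.87 between differentiations 2 and 3, at 0.11 between 1 and 2 and at -6.6e-05 between 1 and 3. In differentiations 2 and 3 alone, 643 genes were higher in both pairs and 699 lower in both. In what follows, higher or lower in all 3 pairs refers to this 2-fold count. A gene that averaged under 100 at 1 passage could reach the minimum mean only through the other passage. For such genes the filter partly set the count. Among those named below, *LMX1B*, *WNT4*, *HHIP*, *BMP6*, *NOG*, *LUM* and *DCN* were under 100 in every P1 library. Where no share stands beside a list's counts, 1.61% and 1.53% of all genes apply for all 3 pairs. For the 2 opposite patterns, 1.83% and 0.952% apply. The share of all genes whose P1 and P3 libraries did not overlap was not counted. Statements on overlap describe the values only, since most of these genes were picked by their difference in each pair.

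**Figure D2:**
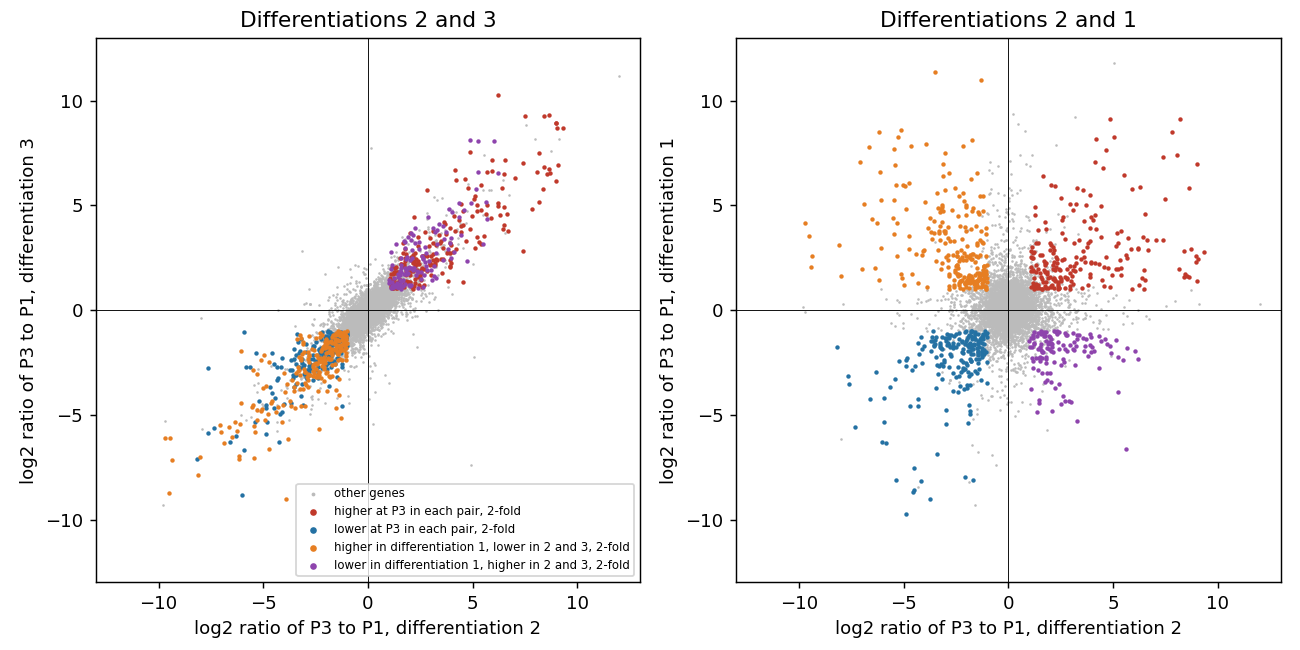
Log2 ratio of P3 to P1 for 12921 genes, differentiation 2 against 3 (left) and against 1 (right), each point a gene. The 208 and 198 genes past 2-fold in the same direction in each pair are red and blue, and the 237 and 123 genes that went the other way in differentiation 1 are orange and purple.

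Of the 39 *HOX* genes, 30 averaged 100 normalized counts or more, and 14 of those 30 were higher in all 3 pairs and 0 were lower, beside 1.61% and 1.53% of all genes. DESeq2 passed 14 higher and 1 lower, beside 1.84% and 1.61% of all tested genes, and edgeR without differentiation 1 passed 15 higher and 5 lower, beside 3.69% and 3.79%; with all 3 differentiations edgeR passed 0. By paralogue number, 0 of 8 genes of *HOX1* to *HOX3*, 2 of 7 of *HOX4* and *HOX5* and 5 of 5 of *HOX6* and *HOX7* with enough counts were higher in all 3 pairs. So were 4 of 7 of *HOX8* and *HOX9*. Of 6 *HOX10* and *HOX11* genes, 3 had enough counts, and all 3 were higher in all 3 pairs. These 3 were low at P1 and reached the minimum mean through P3, so the filter partly set their count. The same holds for *HOXC9* and *HOXD9*, which were under 100 normalized counts in every P1 library. The filter thus partly set the 4 of 7 and the 14 of 30 as well. Median log2 ratios in differentiations 1, 2 and 3 were 2.16, -0.53 and -0.79 for *HOX1* to *HOX3* and 4.78, 3.10 and 2.38 for *HOX6* and *HOX7*. They were 0.01, -0.04 and -0.02 over all 12921 genes. For the 3 *HOX10* and *HOX11* genes with enough counts they were 5.84, 8.63 and 6.72. This last median leaves out the genes of the group that stayed low, so it shows no trend with paralogue number. *HOX1* to *HOX5* were the only *HOX* groups with a median below 0 in any differentiation.

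The *HOX* gene with the largest mean log2 ratio was *HOXC10* (chromosome 12, 53985065 to 53990279, GRCh38), which marks caudal levels of the trunk. It had 24.7, 14.9 and 4.74 normalized counts at P1 and 3258, 8118 and 2825 at P3. All 3 P3 libraries lay above every P1 library, with a log2 difference of 8.42 ± 0.59 (SE; adjusted p = 0.12 in edgeR), and over 11 alternatives the adjusted p ran from 2.1e-52 with DESeq2 to 0.98 without differentiation 2. *HOXA10* (chromosome 7, 27170591 to 27180261) had 26.7, 7.44 and 11.1 at P1 and 1581, 3348 and 1273 at P3. *HOXC9*, a thoracic gene, had 10.3, 80.6 and 41.8 at P1 and 1509.7, 1425 and 957 at P3, and *HOXD9* had 2.05, 50.8 and 26.8 against 952, 1703 and 1113. Neither gene's groups overlapped, and both had their lowest P1 value in differentiation 1. *HOXC6* had 343, 1296 and 1325 at P1 and 9449, 11103 and 6893 at P3. *HOXC8* had 90.4, 899 and 503 against 2810.2, 2172 and 1705, *HOXB6* 242, 593 and 357 against 685, 1787 and 1638, and *HOXB7* 429, 532 and 624 against 922, 2179 and 2337. In these genes, picked as 2-fold apart in each pair, the P1 and P3 libraries did not overlap. *HOXC5* was also higher in all 3 pairs, but it overlaps *HOXC4* and *HOXC6*, so its reads cannot be placed with certainty.

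Summed over paralogues and given per length in TPM, *HOX6* and *HOX7* went from 30.08, 72.35 and 88.14 at P1 to 706.4, 643.6 and 539.9 at P3, and *HOX10* and *HOX11* went from 2.11, 0.85 and 0.59 to 120.6, 334.6 and 103.3. The sums of *HOX8* and *HOX9* were 115, 519.3 and 660.4 at P1 and 880.9, 717.2 and 628.6 at P3, so that in differentiation 3 they were slightly lower at P3. *HOX1* to *HOX3* summed to 345.8, 786.3 and 729.6 at P1 and 575.7, 366.1 and 315.2 at P3, higher in differentiation 1 and lower in the other 2. *HOX12* and *HOX13* stayed low, at 2.26, 0.56 and 0.25 against 0.29, 1.34 and 0.33 TPM, and 0 of those 6 genes reached a mean of 100 normalized counts. A *HOX* index, the mean paralogue number weighted by normalized count, was 3.50, 4.76 and 5.24 at P1 and 6.10, 6.62 and 6.29 at P3. It was higher at P3 in each pair, by 1.84 on average (SD 0.777, n = 3). The paired difference was 1.45 without differentiation 1. With log2 weights the index was 6.01, 5.45 and 5.34 at P1 and 5.94, 6.46 and 6.06 at P3, by 0.556 higher on average and slightly lower in differentiation 1.

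Single genes showed the contrast between differentiations. *HOXB1*, the gene at the anterior end of its cluster, had 3893, 8620.0 and 8119.9 normalized counts at P1 and 2335, 199 and 679 at P3, lower at P3 in each pair though by less than 2-fold in differentiation 1. *HOXD4* had 53.4, 5263 and 7308 at P1 and 5122, 3074 and 2274 at P3 and *HOXB9* had 4583, 25813 and 34358 at P1 and 28268, 17435 and 14084 at P3. Both were low in P1 of differentiation 1 alone. *HOXD10* stood at 4.11, 3.72 and 3.16 at P1 and at 18.2, 393 and 28.3 at P3, with 1 high library.

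**Figure D3:**
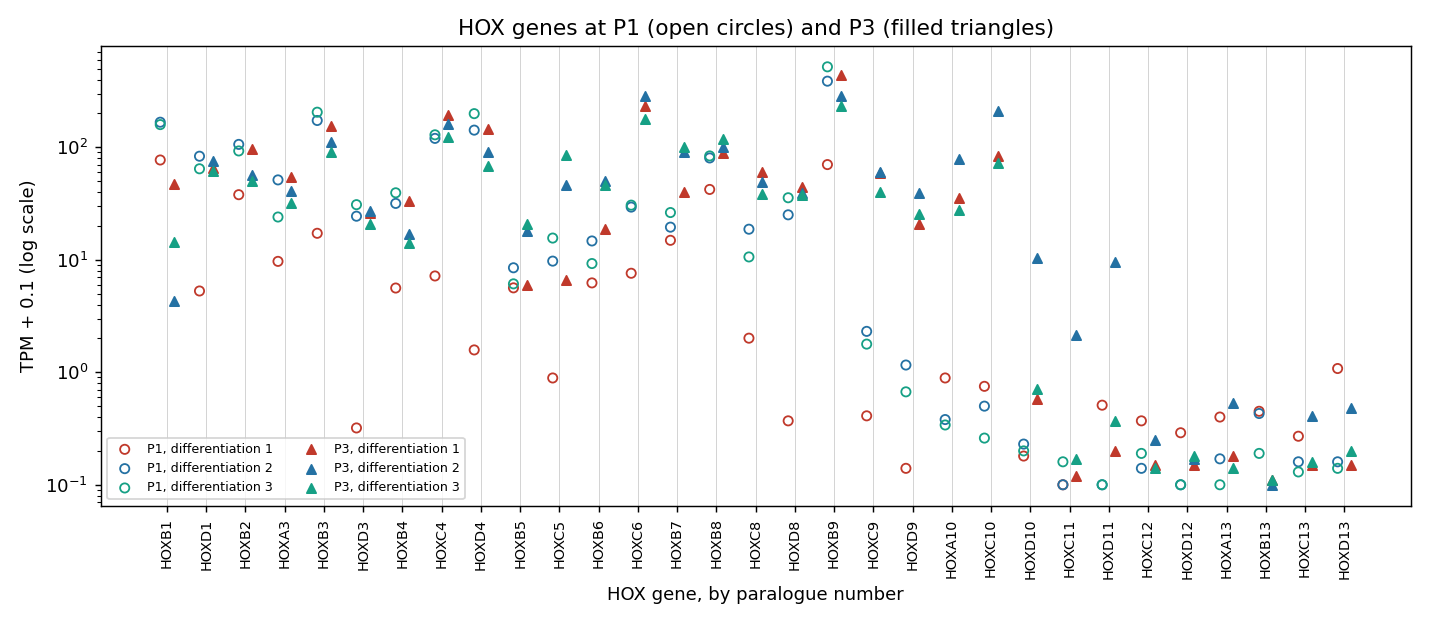
TPM plus 0.1 on a log axis for named *HOX* genes ordered by paralogue number, with open circles for P1 and filled triangles for P3, coloured by differentiation. *HOXC9*, *HOXD9*, *HOXA10* and *HOXC10* show 3 triangles above 3 circles, and *HOXC10* reaches 84.1, 212 and 72 TPM at P3.

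The *CDX* genes, which act upstream of trunk *HOX* genes, and the *HOX* cofactors had median log2 ratios of -0.05, -0.66 and -0.60. In all 3 pairs 0 of 10 were higher and 1 was lower, beside 1.61% and 1.53% of all genes. Without differentiation 1, edgeR passed 0 higher and 2 lower, beside 3.69% and 3.79%. *CDX2* had 14457, 6071 and 2104 normalized counts at P1 and 11199, 8725 and 5612 at P3, with overlapping groups. *CDX1* had 1362, 5663 and 3029.8 against 1179, 224 and 470.3, lower at P3 in each pair but by less than 2-fold in differentiation 1. The 1 lower gene was *MEIS3*, a homeodomain cofactor, with 2874, 1143 and 965 at P1 and 842, 166 and 159 at P3; every P3 library was below every P1 library (log2 difference -2.38 ± 0.27, SE; adjusted p = 0.16 in edgeR). *MEIS1*, from the same family, had 55.5, 2394 and 2665 at P1 and 1415, 1201 and 1622 at P3, low in 1 P1 library.

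Pluripotency genes had medians below 0 in each differentiation. Of 24 genes, 14 had enough counts, with median log2 ratios of -1.66, -0.67 and -0.73. In all 3 pairs 3 of these were lower and 0 were higher, beside 1.53% and 1.61% of all genes. DESeq2 passed 4 lower, beside 1.61% of all tested genes. Without differentiation 1, edgeR passed 1 higher and 3 lower, beside 3.69% and 3.79%. *POU5F1* (OCT4; chromosome 6, 31164337 to 31180731), a core pluripotency factor, had 29163, 641 and 169.7 normalized counts at P1 and 32.6, 21.1 and 6.28 at P3. All P3 values lay below all P1 values, and the P1 libraries themselves spread widely. The log2 difference was -6.65 ± 1.46 (SE; adjusted p = 0.22 in edgeR) with all pairs and -4.84 without differentiation 1. *NANOG* had 1146, 3.72 and 0 at P1 and 5.76, 2.11 and 0 at P3, so its difference rested on 1 P1 library. *ZFP42* (REX1) had 6130.5, 5165 and 3533 against 2441, 630.0 and 573, and *USP44*, a deubiquitinase of stem cells, had 2494, 465 and 653 against 465, 134 and 119. *LIN28A*, an RNA-binding protein that keeps let-7 microRNAs low, stayed abundant, with 128925, 45912 and 41424 at P1 and 71613, 48905 and 27405 at P3 and overlapping groups (log2 difference -0.45 ± 0.21, SE; adjusted p = 0.43 in edgeR).

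The list of NMP and primitive streak genes held 22 genes with enough counts, with median log2 ratios of -0.37, -1.47 and -0.36. In all 3 pairs 0 were higher and 1 was lower, beside 1.61% and 1.53% of all genes. Another 5 were higher in differentiation 1 and lower in the other 2, and 1 was the reverse, beside 1.83% and 0.952%. Without differentiation 1, edgeR passed 2 higher and 6 lower, beside 3.69% and 3.79%. The gene lower in all 3 pairs was *FST* (chromosome 5, 53480409 to 53487134), whose product follistatin binds activins and GDF11. It had 39269, 6201 and 6993 normalized counts at P1 and 1635, 242 and 543 at P3, with no overlap and log2 ratios of -4.58, -4.67 and -3.69. The fitted log2 difference was -4.32 ± 0.27 (SE; adjusted p = 0.12 in edgeR), and the adjusted p ran from 4.7e-49 with DESeq2 to 0.84 without differentiation 2 over 12 alternatives. *TBXT* had 2876, 2963 and 549 at P1 and 1171, 724 and 1818 at P3, lower in 2 pairs and higher in 1, and the groups overlapped. *NKX1-2*, a caudal epiblast and pre-neural gene, had 55951, 836 and 67.9 against 4044, 1782 and 477, high in P1 of differentiation 1 alone. The WNT ligand gene *WNT8A* had 516, 3021 and 1155 at P1 and 641, 11.6 and 21.2 at P3, lower in 2 pairs. The study's NMP markers *TBXT*, *SOX2*, *CDX1*, *CDX2* and *NKX1-2*, all detected in each library, summed to 1128, 351.3 and 139.7 TPM at P1 and to 424.6, 322.9 and 235.9 at P3. *NKX1-2* led that sum in P1 of differentiation 1, *CDX1* in the other P1 libraries and *CDX2* in all 3 P3 libraries.

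Of 19 presomitic and somite genes with enough counts, 12 were higher in differentiation 1 and lower in the other 2, beside 1.83% of all genes, 1 was the reverse, 1 was higher in all 3 pairs and 0 were lower. The median log2 ratios were 4.93, -1.88 and -3.50. edgeR passed 0 with all 3 differentiations, and without differentiation 1 it passed 2 higher and 12 lower, beside 3.69% and 3.79%. *TBX6* (chromosome 16, 30085793 to 30091887), the T-box factor of presomitic mesoderm, had 138, 8967 and 11297 normalized counts at P1 and 5285, 200.2 and 485 at P3. The low P1 library and the high P3 library were those of differentiation 1, and the log2 difference was -3.37 ± 3.29 (SE; adjusted p = 0.68 in edgeR) with all pairs and -4.98 without differentiation 1. Between these times the P2 libraries of the 3 differentiations held 6719.8, 1229.9 and 639.8. *MSGN1* had 43.1, 2344 and 947 against 549, 51.6 and 129.5. *FOXC2*, a somite and mesenchyme factor, had 2.05, 2103 and 8077 against 8196, 184 and 316. *PAX3*, which marks dermomyotome and also dorsal neural tube and neural crest, was the gene higher in all 3 pairs, with 840.3, 306 and 96.3 at P1 and 2509, 2012 and 1296 at P3, higher in every P3 library than in any P1 library.

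Of 17 Notch and segmentation clock genes, 8 were higher in differentiation 1 and lower in the other 2, beside 1.83% of all genes, 0 were higher or lower in all 3 pairs, and the median log2 ratios were 2.06, -0.72 and -0.92. This list shared 5 genes with the presomitic list, *DLL1*, *HES7* and *LFNG* among them, and 4 of these 5 were among the 8. Without the shared genes, a count made after the data were seen, 4 of 12 were, with median log2 ratios of 0.92, -0.24 and -0.27. *DLL1*, a Notch ligand, had 251, 13869 and 30999 normalized counts at P1 and 15911, 334 and 544 at P3. *HES7*, the oscillating repressor of the clock, had 353, 3368 and 3105 against 2606, 329.8 and 409, and *LFNG*, a glycosyltransferase that modifies Notch, had 1091, 3371 and 7534 against 6251, 917 and 861. In each of these 3 genes differentiation 1 was low at P1 and high at P3 and the other 2 were the reverse. *RIPPLY2*, a repressor of T-box activity at the forming somite border, had 0, 22.3 and 1123 at P1 and 2025, 8.43 and 30.6 at P3. *RIPPLY1*, its paralogue, had 0, 0 and 133 against 3542, 32.7 and 27.5, and *NRARP*, a Notch feedback gene, had 439.7, 833 and 2387 against 2225, 164 and 279.

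The 250 bases before the start of the genes of these 2 lists were read from RefSeq promoter sequences (GRCh38.p14), which matched 30 of 40 genes. Both strands were searched for 4 motifs: TCACACC (a T-box site), TTTATGG (CDX), CTTTGAT (TCF/LEF) and ATGCAAAT (the octamer read by POU factors). The motifs were in 2.76%, 2.30%, 2.26% and 1.63% of 35116 promoters of all genes. Among 248 promoters of the 237 genes that were higher in differentiation 1 and lower in the other 2, 9 held the T-box site (3.63%), 4 the CDX motif (1.61%), 6 the TCF/LEF motif (2.42%) and 7 the octamer (2.82%). Among 160 promoters of the 123 genes with the reverse pattern, 6 held the T-box site (3.75%), 4 the CDX motif (2.5%), 2 the TCF/LEF motif (1.25%) and 6 the octamer (3.75%). In the same order, the motifs were in 1.11%, 1.48%, 1.11% and 1.48% of 270 promoters of the genes higher in all 3 pairs and in 2.26%, 3.39%, 2.26% and 1.69% of 177 promoters of those lower in all 3. Of the 30 genes, 5 held a motif (16.7%), where 2871 of 27305 genes with a promoter did (10.5%). Of the 5, 2 are shown with the motif in capitals. Their 250 bases met no annotated exon, though exon overlap was not the only reason to leave a stretch out. The *RIPPLY1* stretch is chrX:106903342-106903591 and the *NRARP* stretch chr9:137302272-137302521, both on the minus strand, with the T-box site starting 145 bases and the octamer 48 bases before the start. A match describes these letters and shows no binding.
RIPPLY1: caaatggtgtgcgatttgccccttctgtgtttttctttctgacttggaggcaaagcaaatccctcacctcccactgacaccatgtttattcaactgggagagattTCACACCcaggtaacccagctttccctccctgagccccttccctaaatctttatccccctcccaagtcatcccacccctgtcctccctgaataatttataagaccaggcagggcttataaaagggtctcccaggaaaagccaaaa
NRARP: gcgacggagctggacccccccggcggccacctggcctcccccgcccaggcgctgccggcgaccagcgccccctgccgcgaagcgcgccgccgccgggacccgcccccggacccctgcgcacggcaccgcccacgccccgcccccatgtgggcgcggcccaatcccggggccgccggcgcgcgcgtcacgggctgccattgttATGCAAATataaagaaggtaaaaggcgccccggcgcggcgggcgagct

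**Figure D4:**
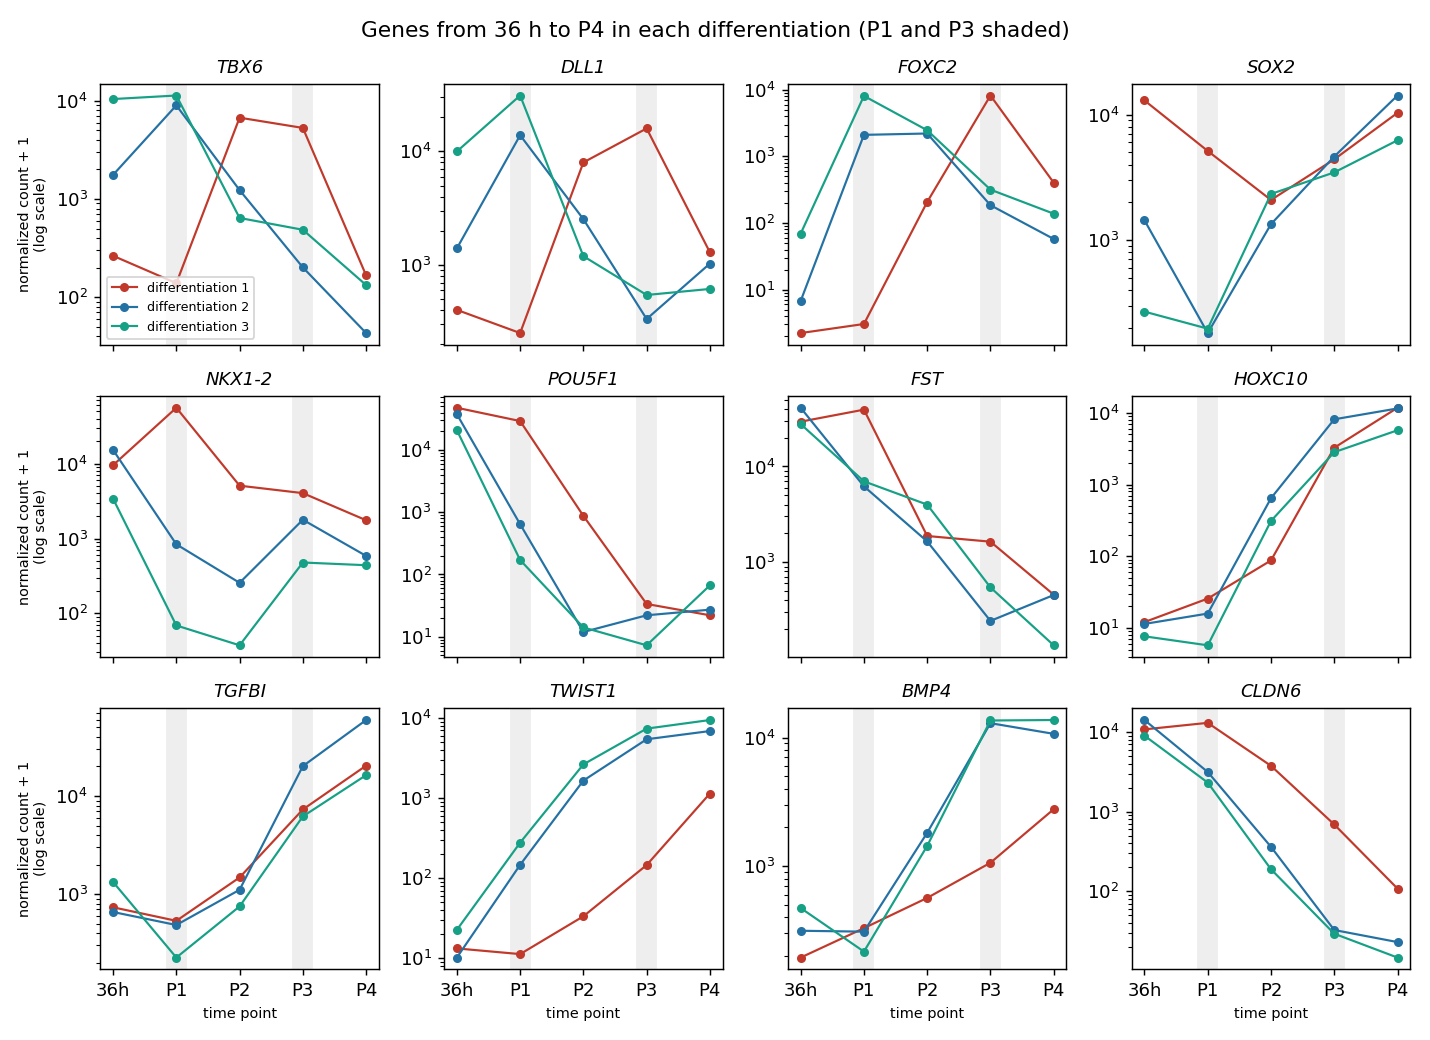
Normalized counts plus 1 on a log axis for 12 genes from 36 h to P4, 1 line for each differentiation, with P1 and P3 shaded. *TBX6*, *DLL1* and *FOXC2* peak at P2 or P3 in differentiation 1 and earlier in the other 2, whereas *HOXC10*, *TGFBI*, *FST* and *POU5F1* differ between P1 and P3 in the same direction in all 3.

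The median log2 ratios of 12 pre-neural and neural progenitor genes with enough counts were -0.17, 2.43 and 1.97. In all 3 pairs 1 was higher and 0 were lower, beside 1.61% and 1.53% of all genes. DESeq2 passed 3 higher, beside 1.84% of all tested genes. Without differentiation 1, edgeR passed 7 higher, beside 3.69%, and with all pairs it passed 0. *SOX2*, shared by pluripotent, NMP and neural cells, had 5134, 179.8 and 195 normalized counts at P1 and 4402, 4635 and 3462 at P3. P1 of differentiation 1 was above every P3 library and the other P1 libraries were below them, and the log2 difference was 3.11 ± 1.36 (SE; adjusted p = 0.41 in edgeR) with all pairs and 4.41 without differentiation 1. *ZIC1*, a zinc finger gene of dorsal neural tissue and somites, had 793, 68.2 and 71 against 1083, 17487 and 20471. *HHIP*, which binds hedgehog ligands, was the gene higher in all 3 pairs, with 76, 79.3 and 99.5 at P1 and 433, 4075 and 9591 at P3. The neural progenitor markers *PAX6*, *SOX1* and *IRX3* stayed low, summing to 8.27, 0.87 and 1.41 TPM at P1 and 5.85, 2.03 and 8.1 at P3. *PAX6* itself had 158, 0 and 8.68 normalized counts at P1 and 47, 2.11 and 2.36 at P3, too low in differentiations 2 and 3 for a fold.

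Neuron genes gave 9 with enough counts, 0 higher and 1 lower in all 3 pairs, beside 1.61% and 1.53% of all genes. The lower gene, *STMN2*, a microtubule regulator of growing neurites on chromosome 8, had 3938, 1989.8 and 5282 normalized counts at P1 and 802, 69.5 and 128 at P3. *TUBB3*, a tubulin of neurons also found in progenitors, led the neuron list, which summed to 553, 310.5 and 400.9 TPM at P1 and 451.1, 314.9 and 370.4 at P3, and its own groups overlapped. Of the forebrain and midbrain genes, 3 had enough counts and 1 was higher in all 3 pairs: *LMX1B*, a LIM homeodomain gene also used in the roof plate and limb, with 41.1, 12.4 and 11.1 at P1 and 136, 4593 and 7433 at P3. Its P3 libraries differed widely, with differentiation 1 the lowest.

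Neural crest genes gave the most genes higher in all 3 pairs of the cell type lists. Of 19 with enough counts, 6 were higher and 2 lower in all 3 pairs, beside 1.61% and 1.53% of all genes, with median log2 ratios of -0.34, 1.87 and 1.75. Of the 6, *PAX3* is also the 1 higher gene of the presomitic list, and *MSX1* and *MSX2* are also in the BMP list below. DESeq2 passed 8 higher and 3 lower, beside 1.84% and 1.61% of all tested genes. Without differentiation 1, edgeR passed 11 and 3, beside 3.69% and 3.79%. *TWIST1* (chromosome 7, 19020991 to 19117672), a mesenchymal factor of crest and mesoderm, had 10.3, 146 and 277 normalized counts at P1 and 145, 5423 and 7363 at P3, a log2 difference of 4.77 ± 0.30 (SE; adjusted p = 0.12 in edgeR). The P3 value of differentiation 1 lay within the range of P1, so the groups overlapped although each pair differed. *ETS1* had 117, 214 and 283 against 555, 3851 and 3847. *KIT*, the receptor of melanoblasts and germ cells, had 394, 444 and 474 against 1303, 1625 and 1742, with little spread within either group. *MSX1* and *MSX2*, homeobox targets of BMP signalling, had 1769, 3867 and 2053 against 4504, 12202 and 13624, and 189, 697 and 220.2 against 391, 3179 and 4763. Among the lower genes was *ERBB3*, a receptor tyrosine kinase gene, with 861, 333 and 677 against 279, 149.6 and 278. *SNAI1*, a zinc finger repressor active when epithelial cells become mesenchymal, had 224, 3262 and 1094 at P1 and 1135, 1109 and 1123 at P3, with overlapping groups (log2 difference 0.22 ± 0.87, SE; adjusted p = 0.93 in edgeR). The defining crest markers *SOX10*, *FOXD3* and *TFAP2B* summed to 0.83, 0.19 and 0.52 TPM at P1 and 1.12, 1.32 and 7.23 at P3, higher in each pair, and each averaged less than 100 normalized counts. *FOXD3* had 8.22, 1.24 and 2.37 normalized counts at P1 and 17.3, 39 and 191 at P3, and *TFAP2B* had 24.7, 2.48 and 1.58 against 34.6, 30.6 and 148. Their adjusted p in edgeR was 0.31 and 0.41 with all pairs and 0.00033 and 0.0015 without differentiation 1. These last 2 were the lowest over 11 alternatives, from a fit with 1 residual degree of freedom. The highest came without differentiation 2. *SOX10* had 34.9, 11.2 and 32.4 normalized counts at P1 and 24, 6.32 and 87.9 at P3, lower in 2 pairs and higher in 1, with an adjusted p of 0.95 with all pairs and 0.46 without differentiation 1.

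Epithelial and junction genes also had medians below 0, with median log2 ratios of -1.60, -0.64 and -0.67. Of 10 with enough counts, 0 were higher and 3 lower in all 3 pairs, beside 1.61% and 1.53% of all genes. *CLDN6*, a tight junction claudin of early epithelia, had 13017, 3144 and 2313 normalized counts at P1 and 688, 31.6 and 28.3 at P3, with no overlap (log2 difference -5.69 ± 0.65, SE; adjusted p = 0.16 in edgeR). *KRT18* had 20731, 14866 and 6811 against 9839.6, 2949.9 and 1885, and *KRT19* had 3022, 4819 and 7192 against 899, 15.8 and 51.8. For both keratin genes the highest P3 value was that of differentiation 1. Mesenchymal and matrix genes gave 23 with enough counts. In all 3 pairs 4 were higher and 0 lower, beside 1.61% and 1.53% of all genes. Another 4 were higher in differentiation 1 and lower in the other 2, beside 1.83%. The median log2 ratios were 0.73, -0.19 and -0.57. Without differentiation 1, edgeR passed 6 higher and 9 lower, beside 3.69% and 3.79%. *CDH6*, a cadherin of crest and dorsal neural tube, had 1370.3, 837 and 691 at P1 and 6678, 10585 and 11952 at P3. *PRRX1*, a homeobox gene of mesenchyme, had 251, 34.7 and 22.9 against 745, 14116 and 15241, and *LUM*, which encodes a matrix proteoglycan, had 14.4, 22.3 and 44.2 against 108, 7870.0 and 5115. *DCN*, another matrix proteoglycan gene, had 6.16, 4.96 and 11.8 against 13.4, 534 and 389. In *PRRX1*, *LUM* and *DCN* P3 of differentiation 1 was far below the other 2 P3 libraries. *LUM* and *DCN* reached the minimum mean through P3, and *DCN* counted as higher in differentiation 1 on 6.16 against 13.4. The collagen gene *COL3A1* had 45.2, 19467 and 18926 against 10505, 4414 and 5649, low in P1 of differentiation 1 alone.

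BMP pathway genes gave the largest count of genes higher in all 3 pairs among the signalling lists, 8 of 20, beside 1.61% of all genes, with 0 lower and median log2 ratios of 1.19, 0.88 and 1.54. DESeq2 passed 11 higher and 0 lower, beside 1.84% and 1.61% of all tested genes, and edgeR without differentiation 1 passed 10 and 1, beside 3.69% and 3.79%. The ligand gene *BMP4* had 329, 309 and 216 normalized counts at P1 and 1063, 12932 and 13570.3 at P3. *BMP6* had 59.6, 48.4 and 73.4 against 668, 2563 and 2443, a log2 difference of 4.79 ± 0.55 (SE; adjusted p = 0.16 in edgeR), and *BMP5* had 43.1, 118 and 156 against 124, 826 and 926. *BMP4* and *BMP6* had no overlap between groups, and P3 of differentiation 1 was the lowest of the P3 libraries for all 3 ligand genes. The genes of 2 secreted BMP antagonists were higher too: *NOG* (noggin) had 59.6, 89.3 and 19.7 against 874, 1673 and 1529, and *GREM1* (gremlin) had 1089, 3536 and 1878 against 7436, 8256 and 6546. The receptor gene *BMPR1B* had 127, 222 and 229 against 561, 553 and 561. The 8 thus held ligand, antagonist and receptor genes and, as targets, *MSX1* and *MSX2*, which the neural crest list also counts. Other members of the list, *ID1*, *ID2*, *ID3*, *ID4*, *SMAD6*, *SMAD7* and *BAMBI*, were not among the 8.

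The median log2 ratios of hedgehog pathway genes were 0.64, 0.87 and 0.97. Of 11 genes, 3 were higher and 0 lower in all 3 pairs, beside 1.61% and 1.53% of all genes. Besides *HHIP*, these were *GLI3*, a transcription factor of the pathway, with 2200.3, 1633 and 2023 normalized counts at P1 and 5536, 5768 and 6533 at P3 (log2 difference 1.61 ± 0.14, SE; adjusted p = 0.13 in edgeR), and the co-receptor gene *BOC*, with 495, 394 and 534 against 1181, 2055 and 1593. Neither gene's groups overlapped. *PTCH1*, the receptor and a target gene of the pathway, had 1948, 14515 and 31963 against 29863, 16996 and 18284, low in P1 of differentiation 1 alone.

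The TGF-beta, GDF and Nodal list had median log2 ratios of 0.32, 0.32 and 0.12. In all 3 pairs 2 of its 20 genes were higher and 1, *FST*, was lower, beside 1.61% and 1.53% of all genes. *TGFBI* (chromosome 5, 136028895 to 136063818), a matrix protein gene induced by TGF-beta, had 534, 484 and 225 normalized counts at P1 and 7290.4, 20162 and 6197 at P3. Every P3 library was above every P1 library, with a log2 difference of 4.65 ± 0.40 (SE; adjusted p = 0.13 in edgeR) and adjusted p values over 12 alternatives from 6.3e-33 with DESeq2 to 0.95 without differentiation 2. *TGFB2*, a ligand gene, had 6.16, 73.1 and 105 against 1439.7, 1913 and 1043. *GDF11* (chromosome 12, 55743280 to 55757278), a ligand known for moving the axis from trunk to tail, had 1952, 2570.0 and 2799 at P1 and 6419.9, 6025 and 5432 at P3. Its groups did not overlap, and the log2 ratios of 1.72, 1.23 and 0.96 put it just under 2-fold in differentiation 3 (adjusted p = 0.17 in edgeR).

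Of 21 WNT genes, 1 was higher and 0 were lower in all 3 pairs, beside 1.61% and 1.53% of all genes. Another 1 was higher in differentiation 1 and lower in the other 2, and 1 was the reverse, beside 1.83% and 0.952%. Without differentiation 1, edgeR passed 6 higher and 4 lower, beside 3.69% and 3.79%. The median log2 ratios were -0.11, 0.54 and 0.39. *WNT4*, the higher ligand gene, had 26.7, 4.96 and 8.68 normalized counts at P1 and 72.9, 555 and 1370.1 at P3. The WNT target *AXIN2* had 10849.5, 8789.8 and 12619.6 against 9817, 25421 and 36127, higher at P3 in differentiations 2 and 3 only. Of 27 FGF genes, 0 were higher and 1 was lower in all 3 pairs, beside 1.61% and 1.53% of all genes. Another 4 were higher in differentiation 1 and lower in the other 2, and 2 were the reverse, beside 1.83% and 0.952%. Without differentiation 1, edgeR passed 7 higher and 4 lower, beside 3.69% and 3.79%. The median log2 ratios were -0.20, 0.08 and 0.24. The gene lower in all 3 pairs, *FGFR3*, an FGF receptor, had 1670.3, 503 and 609 against 210.2, 80.1 and 137 (log2 difference -2.60 ± 0.25, SE; adjusted p = 0.14 in edgeR). *FGF8*, the caudal ligand gene, had 41.1, 827 and 647 against 690.1, 86.4 and 283, opposite in differentiation 1, and *DUSP6*, a feedback phosphatase gene, had 14079, 14269.5 and 7761 against 13167, 13179.8 and 5863, with overlapping groups. In the retinoic acid list 0 of 14 were higher or lower in all 3 pairs and 2 went opposite ways, with median log2 ratios of 0.28, -0.06 and 0.25. The latter included *ALDH1A2*, which makes retinoic acid in paraxial mesoderm, with 14.4, 10238 and 20056 against 1040.4, 378 and 645. The receptor target *RARB* stayed at 18.5, 9.92 and 7.1 against 5.76, 10.5 and 12.6.

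Proliferation genes showed no gene at 2-fold in all 3 pairs in either direction, 0 of 23, with median log2 ratios of 0.03, -0.14 and -0.16, and *MKI67*, a marker of cycling cells, had 12289.7, 18213 and 23725 normalized counts at P1 and 16128, 17808 and 19331 at P3. Cell cycle inhibitors and p53 targets also gave 0 of 15, with medians of -0.68, -0.75 and 0.14. Of 22 hypoxia and glycolysis genes, 0 were higher and 1 lower in all 3 pairs by 2-fold, but at any size 16 were lower in each pair and 2 higher, where 2754 and 2500 of all 12921 were. Their median log2 ratios were -0.60, -0.43 and -0.58. *ADM* (adrenomedullin), the lower gene, had 668, 124 and 20.5 against 142, 10.5 and 3.93, and *SLC2A3*, a glucose transporter gene, had 105449, 25922 and 14449 against 31067, 16171 and 5856. Both had overlapping groups. Early stress genes gave 0 higher and 1 lower of 15, with medians of -0.25, -0.17 and -0.38: *CHAC1*, a gene of the unfolded protein response, had 357, 219 and 1827 against 83.5, 91.7 and 74.6. The 13 mitochondrially encoded genes had medians of 0.76, -0.40 and -0.43 and 0 at 2-fold in all 3 pairs.

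**Figure D5:**
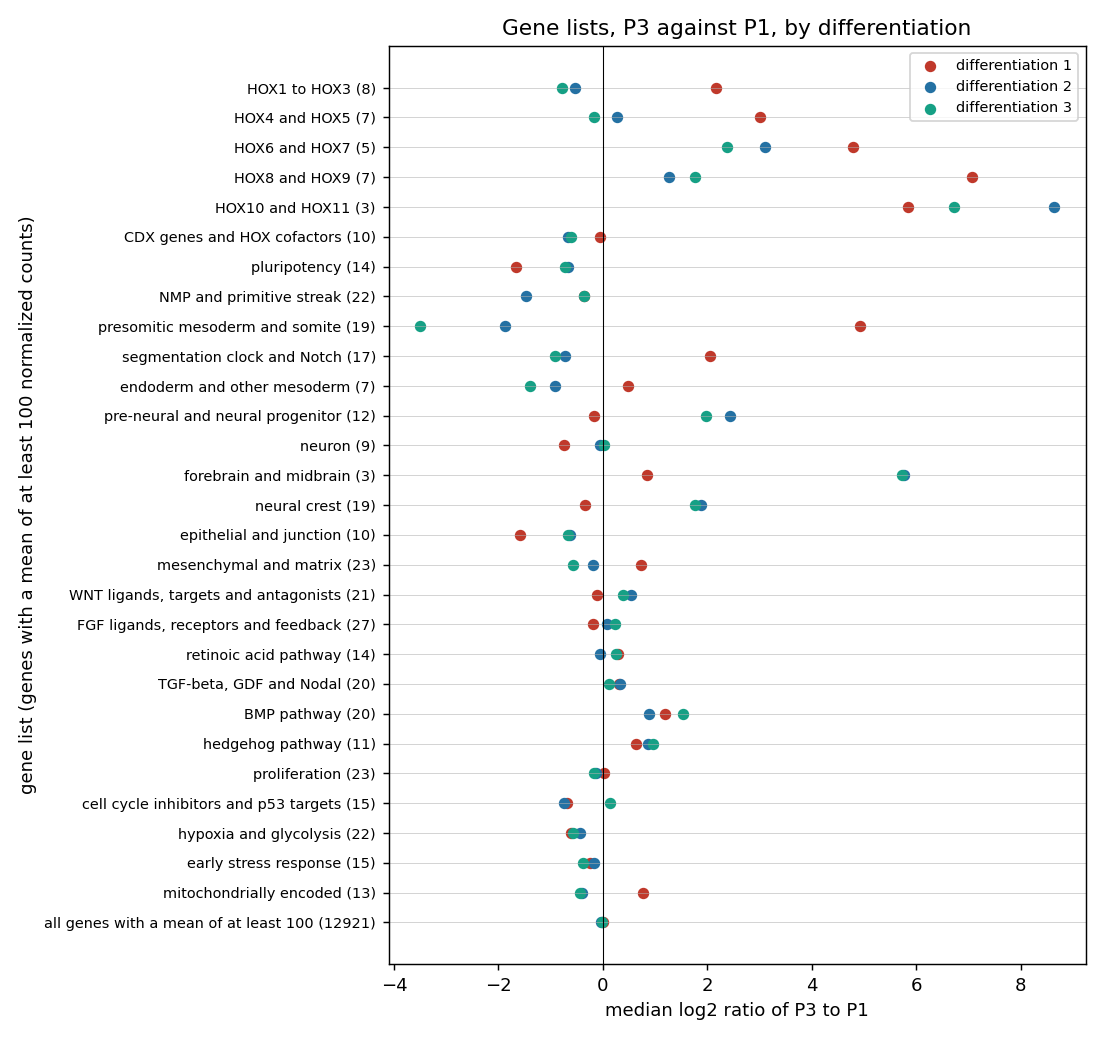
Median log2 ratio of P3 to P1 for gene lists with at least 3 genes of enough counts, 1 point for each differentiation, with all 12921 genes last. *HOX6* to *HOX11* and BMP medians are above 0 in all 3, and presomitic medians are 4.93, -1.88 and -3.50. The *HOX10* and *HOX11* median covers 3 of 6 genes, which reached the minimum mean through P3.

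Among all protein-coding genes, the 10 highest by mean log2 ratio among those higher in all 3 pairs were *HOXC10*, *HS3ST2*, *HDC*, *GABRA4*, *HOXA10*, *SCGN*, *C1QTNF7*, *PRRX1*, *LMX1B* and *ABCA9*. *HS3ST2*, a heparan sulfate sulfotransferase gene, had 0, 1.24 and 0.789 normalized counts at P1 and 554, 652 and 62 at P3. *HDC*, which makes histamine, had 2.05, 1.24 and 0 against 120.0, 406 and 616, and *GABRA4*, a GABA receptor subunit gene, had 6.16, 1.24 and 0.789 against 1227, 598 and 169.6. These 3 genes were at or near 0 in every P1 library and well above it in every P3 library, through which they reached the minimum mean. *SCGN* (secretagogin, a calcium-binding protein) had 0 counts in all 3 P1 libraries and 365, 227 and 27.5 at P3. The P3 mean of 206 was at least 50.5-fold above a floor of 3 counts in each P1 library. This bound is for the mean and not for each pair, and P3 of differentiation 3 was far below the other 2. *C1QTNF7* had 0, 0 and 0.789 against 5.76, 645 and 736, and *ABCA9*, a lipid transporter gene, had 8.22, 1.24 and 1.58 against 23, 1166 and 1054. For these last 2, P3 of differentiation 1 stayed near the P1 level.

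The lowest by the same measure included *PCSK1*, *POU5F1*, *FOXH1*, *ZSCAN10*, *CLDN6*, *F2RL1*, *KRT19*, *VRTN* and *CAVIN1*. *PCSK1*, a prohormone convertase gene, had 758, 476 and 452 normalized counts at P1 and 8.64, 6.32 and 0 at P3. *FOXH1*, a partner of SMAD proteins in Nodal signalling, had 1288, 501 and 362 against 25.9, 2.11 and 6.28 (log2 difference -6.22 ± 0.56, SE; adjusted p = 0.13 in edgeR). *ZSCAN10*, a zinc finger gene of pluripotent cells, had 3131, 148 and 75.8 against 6.72, 5.27 and 3.93, and *VRTN* (vertnin), linked to vertebral number in pigs, had 10472, 2291 and 1460.4 against 561, 36.9 and 13.3. These genes, picked as lower in each pair, were lower in every P3 library than in any P1 library. *F2RL1*, a protease-activated receptor gene, had 3671, 1654 and 744 against 319, 7.37 and 11.8. *CAVIN1*, a caveolar coat gene, had 4657, 1323 and 883 against 595, 15.8 and 12.6. P1 of differentiation 1 was the highest library for both.

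Of 25 endoderm and other mesoderm genes, 7 had enough counts, 0 were higher or lower in all 3 pairs, and the medians were 0.49, -0.91 and -1.39. The 25 genes summed to 34.98, 96.91 and 95.16 TPM at P1 and to 53.78, 69.5 and 69.64 at P3. The endoderm markers *SOX17* and *FOXA2* summed to 0.85, 0 and 0.06 TPM at P1 and 0.19, 0 and 0.03 at P3, with *SOX17* at 0 counts in all 3 P1 libraries and in 2 of the 3 P3 libraries. *EOMES*, a T-box gene of the early streak in that list, had 766, 4.96 and 2.37 normalized counts at P1 and 6.72, 297 and 118 at P3, opposite in differentiation 1. Of 15 amnion and trophoblast genes, 1 had enough counts and went opposite ways, with log2 ratios of -1.85, 2.40 and 1.06.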

How the data were processed

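PolyA RNA-seq was measured in 47 libraries (KAPA mRNA HyperPrep, 500 ng RNA, 75 bp single reads on a HiSeq 4000; the labels put the depth at 38 M reads or less, which the summed counts of 4 of the 6 libraries exceed). The authors trimmed reads with cutadapt 1.16, aligned them to GRCh38 with STAR 2.5.2b and estimated gene levels with RSEM 1.3.0; they deposited 1 gene table per library. The annotation release and the strand setting are not given in the sources used here. The deposited expected count is RSEM's estimate of the reads of a gene, and the deposited TPM, computed by the authors with RSEM, scales it by gene length and by library. Each table listed 58051 gene IDs; 57447 matched a symbol and position of GENCODE 29 and 604 did not. From the rounded expected counts, TMM factors over all 47 libraries (edgeR 4.0.16, limma 3.58.1, R 4.3.3) gave normalized counts, at depths from 21802304 to 58023045 counts over the 6 libraries.

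Libraries were grouped by their time and replicate labels. The design text gives 3 experiments followed over the time points, with 2 repeats at P9, so differentiation entered as a block. The data did not show this pairing by themselves: after removal of the group means, P1 and P3 of the same number correlated across genes at -0.07, -0.16 and 0.15. P3 was tested against P1 with the quasi-likelihood F-test of edgeR, and p-values were adjusted by Benjamini-Hochberg over all tested genes. A gene passed at an adjusted p under 1% with a 2-fold difference or more, if it averaged 100 normalized counts or more in the 6 libraries. The test was tried on simulated counts with known changes, but that outcome is not given and no result here rests on it. The count of genes at least 2-fold apart in each of the 3 pairs used a pseudocount of 1, has no test and was added after the data were seen. Alternatives were DESeq2 1.42.0, other scalings, filters and thresholds, no block, more libraries in the fit, and each differentiation left out.

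The named genes are the 10 protein-coding genes with the largest mean log2 ratio in each direction among those 2-fold apart in each pair, up to 4 such genes per direction of each of 30 gene lists, and the study's markers; this rule replaced one on tested genes after 0 passed. Genes with opposite directions in differentiation 1, genes given as contrasts, and those of the closing section were chosen after their values were seen. The compared libraries and the gene lists were chosen with earlier results of these data known. Some genes that the rule selects, and some *HOX* genes, are counted in totals and sums and are not reported here by name. The floor covers counting error only; standard errors are those of the fit.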

Additional observations from a re-analysis of the deposited data

How the results depend on the processing

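The counts of genes that passed depended on the model. Where edgeR with the block passed 0 higher and 0 lower (2505 genes at an unadjusted p under 0.05), the 35 whole-culture libraries in 1 fit passed 138 and 100, DESeq2 322 and 282, and the 9 libraries of P1, P2 and P3 4 and 1. No replicate block, that is no pairing, passed 1 and 0. Leaving out 1 differentiation gave 0 to 668 higher and 0 to 686 lower, the upper ends without differentiation 1; the cause was not tested. The other scalings, filters and thresholds passed 0 in both directions. The 208 and 198 genes 2-fold apart in each pair became 589 and 548 with no minimum mean, which admits more genes, and 239 to 643 and 240.0 to 699 with 1 differentiation left out, which asks for fewer pairs; the other scalings and a pseudocount of 5, chosen after seeing the data like the count itself, stayed within 1.5 times. The *HOX* index difference of 1.84 was 0.556 with log2 weights, where differentiation 1 took the other direction, and 1.45 to 2.23 with 1 differentiation left out.

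Of 104 named genes with a fitted log2 fold change, 24 took the other sign under some setting, and the cause was not tested. In the fit of 35 libraries these were *EOMES* (-0.14), *HOXB9* (-0.27), *HOXD4* (-0.47), *MEIS1* (-0.21), *MKI67* (-0.03), *NKX1-2* (-2.06), *RIPPLY2* (0.72), *SNAI1* (-0.35) and *TUBB3* (0.01). With P1, P2 and P3 they were *EOMES* (-0.23), *FOXC2* (0.18), *HOXB9* (-0.01), *MKI67* (-0.00), *RIPPLY2* (1.31), *SNAI1* (-0.39) and *TUBB3* (0.00). Without the block they were *EOMES* (-0.86), *HOXB9* (-0.12), *HOXD4* (-0.27), *MEIS1* (-0.27), *MKI67* (-0.03), *NKX1-2* (-3.17), *RIPPLY2* (0.84), *SNAI1* (-0.45) and *TUBB3* (0.01). *TUBB3*, fitted at -0.00, was 0.01 with DESeq2 and with its size factors, 0.04 with TMM over the 6 libraries and 0.05 with library totals.

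With 1 differentiation left out, the log2 fold change ran from -4.86 to 0.16 for *ALDH1A2*, -1.94 to 2.86 for *COL3A1*, -3.09 to 1.78 for *CXCR4*, -5.61 to 0.28 for *DLL1*, -0.85 to 5.74 for *EOMES*, -2.17 to 1.36 for *FGF8* and -4.13 to 2.64 for *FOXC2*. It ran from -0.93 to 1.03 for *HOXB9*, -1.23 to 2.73 for *HOXD4*, -2.51 to 0.32 for *LFNG*, -0.85 to 1.85 for *MEIS1*, -0.16 to 0.18 for *MKI67*, -4.07 to 0.32 for *MSGN1*, -1.36 to 1.88 for *NKX1-2* and -2.74 to 0.01 for *NRARP*. For *PTCH1* it was -0.29 to 2.08, for *RARB* -0.37 to 0.47, for *RIPPLY1* -0.16 to 13.06 and for *RIPPLY2* -4.22 to 3.73. The upper value for *RIPPLY1* is a fitted value and no exact fold, since some P1 libraries held no counts of that gene. The range was -0.76 to 1.18 for *SNAI1*, -0.66 to 0.71 for *SOX10*, -4.98 to 0.29 for *TBX6*, -1.66 to 0.21 for *TBXT* and -0.04 to 0.04 for *TUBB3*.

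With 6 libraries and 1 library per passage and differentiation, the test had 2 residual degrees of freedom, and 1 with a differentiation left out. A missed threshold therefore does not show that P1 and P3 were alike. Differentiation 1 differed from the other 2 at both passages, so for genes that went opposite ways, 12 of 19 in the presomitic list and 8 of 17 in the Notch list, a mean over the 3 describes none of them. Cell composition, cell state and RNA per cell cannot be told apart in whole cultures. Genes under a mean of 100 normalized counts were left out of the 2-fold counts, and counts of overlapping *HOX* genes are uncertain.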

Other observations

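Among genes outside the lists, chosen here after their values were seen, several were lower at P3 in all 3 pairs with no overlap between passages. *ERBB2*, a receptor tyrosine kinase gene, had 6252, 4237 and 4941 normalized counts at P1 and 2033, 1008 and 1413 at P3. *F11R*, a junctional adhesion gene, had 3454, 966 and 1040.5 against 531, 183 and 126. *SGK1*, a kinase gene induced by serum and glucocorticoids, had 1715, 2489 and 7177 against 395, 129.6 and 89.5. All 3 lay lower in every P3 library than in any P1 library.

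*GDF10*, a ligand gene related to the BMPs, had 88.3, 64.5 and 35.5 normalized counts at P1 and 898, 676 and 444 at P3, higher in every P3 library. *EPHA3*, an ephrin receptor gene, had 26.7, 14.9 and 55.3 against 152, 8540.0 and 6839, and *IGF2*, an imprinted growth factor gene, had 160.2, 951 and 1515 against 2256, 2587 and 3787. *MEST*, another imprinted gene, was among the genes that went opposite ways, with 8953, 344121 and 419444 at P1 and 161822, 8617 and 10960.5 at P3. *CXCR4*, a chemokine receptor gene of the caudal epiblast and early mesoderm, had 183, 18509 and 24572 against 17016, 2566 and 2457. In both, differentiation 1 was low at P1 and high at P3 and the other 2 were the reverse.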
